A study of Mus musculus with 15 samples.

Results

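The 4 Hox clusters of the mouse genome were examined in dentate gyrus, a part of the hippocampus, by reduced representation bisulfite sequencing (RRBS). RRBS cuts genomic DNA with a restriction enzyme, keeps short CpG-rich fragments and reads unmethylated cytosines as converted bases, so that each measured cytosine gets a percentage of methylation. The clusters were taken as 4 intervals of the mm10 build (GRCm38): Hoxa at chr6:52150000-52265000, Hoxb at chr11:96190000-96370000, Hoxc at chr15:102910000-103040000 and Hoxd at chr2:74660000-74770000. They held 1739 of the 455836 CpG positions in the table, each position being 1 cytosine on 1 strand. By cluster there were 475 in Hoxa, 450 in Hoxb, 354 in Hoxc and 460 in Hoxd. A value in all 15 mice was available at 470 of these positions (150, 101, 99 and 120), which are called complete sites below, against 113832 in the whole table.

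The mice were female C57BL/6JRj animals of 7.5 months with no genetic change named in the labels, and the dentate gyrus was dissected from each. There were 3 groups of 5. The standard group spent 6 months in standard housing, the enriched group spent 6 months in an enriched environment, and the withdrawal group spent 3 months in enrichment followed by 3 months in standard housing. Each sample was taken as 1 mouse, and whether tissue was pooled is not given in the sources used here. A percentage from bulk tissue cannot tell apart a few cells that are fully methylated and many cells that are partly so, nor a change within cells and a change in the mix of cells. Methylation does not check which cells were dissected: of 6 genes typical of dentate granule cells only 2 had enough sites, at 9.11% for Prox1 and 91.4% for Dsp.

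Hox genes encode homeodomain transcription factors that give cells along the head-to-tail axis of the embryo their position. Within a cluster the genes lie in the order in which they are used, with low-numbered genes acting in hindbrain and neck and high-numbered genes acting in the trunk, limbs and genital region. The forebrain, which includes the hippocampus, develops in front of the Hox expression domains. There the clusters are a textbook example of CpG-rich DNA held silent by Polycomb proteins, which as a rule carries little DNA methylation.

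The values are percentages without read counts, so the depth behind each is unknown and no counting interval can be given. Missing values were unequal: standard mouse 1 lacked a value at 46.5% of the Hox positions and at 34.7% of all CpG positions, while the other 14 mice lacked 2.13% to 23.9% of the Hox positions. Requiring complete sites therefore rests largely on the positions that mouse 1 covered, and values without it are given where they matter. Opposite strands of the same CpG give a measure of the scatter in single values. At the 15 Hox CpGs with both strands complete, the 2 strands of a mouse differed by a mean of 7.92 percentage points.

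Promoter sequences are shown for 4 genes, to set the CG pairs that exist beside those that were measured. Each is the RefSeq stretch on GRCm38.p6 from 250 bases before the gene start to 10 bases after it, with every CG pair in capitals. Hoxd4, which acts in the hindbrain and neck, had the highest mean within 1 kb of its start among the Hoxd promoters with at least 3 complete sites there (chr2:74721728-74721987, plus strand). Hoxd13, which acts in digits and the genital region, had the lowest mean by the same measure (chr2:74667975-74668234, plus strand). Hoxb1, which marks a single segment of the hindbrain, was the only Hoxb gene of the promoter table with at least 3 complete sites around its start (chr11:96365508-96365767, plus strand). Hoxd12, the neighbour of Hoxd13, was added after its values were seen because most of its CG pairs were measured (chr2:74674763-74675022, plus strand).
Hoxd4: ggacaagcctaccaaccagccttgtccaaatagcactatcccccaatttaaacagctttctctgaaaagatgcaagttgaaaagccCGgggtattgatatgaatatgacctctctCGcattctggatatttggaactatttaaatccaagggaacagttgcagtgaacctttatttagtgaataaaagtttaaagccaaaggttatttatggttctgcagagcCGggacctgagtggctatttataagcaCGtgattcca
Hoxd12: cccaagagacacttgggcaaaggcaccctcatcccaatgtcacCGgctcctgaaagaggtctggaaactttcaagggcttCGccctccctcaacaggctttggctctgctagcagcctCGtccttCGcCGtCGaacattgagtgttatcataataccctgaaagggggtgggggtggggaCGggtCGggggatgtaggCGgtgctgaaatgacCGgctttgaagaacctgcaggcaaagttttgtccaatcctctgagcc
Hoxd13: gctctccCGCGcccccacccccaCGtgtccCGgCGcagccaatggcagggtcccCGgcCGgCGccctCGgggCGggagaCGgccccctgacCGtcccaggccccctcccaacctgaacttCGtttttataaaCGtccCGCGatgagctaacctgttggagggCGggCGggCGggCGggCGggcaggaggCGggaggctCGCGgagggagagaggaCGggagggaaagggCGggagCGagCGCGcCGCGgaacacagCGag
Hoxb1: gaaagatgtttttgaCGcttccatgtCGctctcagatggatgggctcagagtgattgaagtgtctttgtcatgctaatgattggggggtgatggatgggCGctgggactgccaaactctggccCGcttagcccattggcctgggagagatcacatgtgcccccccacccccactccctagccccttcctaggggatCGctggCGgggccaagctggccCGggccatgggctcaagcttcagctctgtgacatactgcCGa

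These stretches hold 4 CG pairs in Hoxd4, 10 in Hoxd12, 32 in Hoxd13 and 8 in Hoxb1. All 4 of Hoxd4 were measured, 7 of Hoxd12, 2 of Hoxb1 and none of Hoxd13. In the few pairs of Hoxd4 methylation was low but not 0. It averaged 13.4% at the pair 164 bases before the start and 12.1% at 135 bases. At 27 bases it averaged 12.5% and 14.2% on the plus and minus strands, and at the pair that begins on the start base 7.35%. In Hoxd12 the same figures were 2.92% and 7.56% on the 2 strands at 207 bases before the start, 12.0% at 170 bases and 2.88% at 132 bases, while the pairs at 70, 65 and 52 bases were at 0 in all 11 mice with a value. The pair nearest the start, at 37 bases, averaged 2.66%, with a highest mouse of 13.6%. The Hoxb1 pairs were at 5.06% and 5.72%. Over all complete sites within 1 kb of the start, methylation averaged 11.2% for Hoxd4 (5 sites), 5.83% for Hoxd12 (13 sites), 2.13% for Hoxd13 (10 sites) and 1.67% for Hoxb1 (3 sites). The Hoxa promoters with as many sites were those of Hoxa10 at 1.96% and Hoxa11 at 2.83%, and the Hoxc cluster had only Hoxc4, at 3.76%. No CG pair of these 3 genes in the same stretch was measured. In their number of CG pairs the Hox promoters as a class were close to other promoters, without a test. The 24 Hox promoters in the RefSeq table, each 300 bases long, belonged to 22 genes. Their median was 14.5 CG pairs (range 4 to 45), against 13 in 21239 promoters of other genes. The sequence CCGG, the same on both strands and the cutting site of the enzyme MspI that is usual in RRBS, occurred in 79.2% of the Hox promoters and in 62.2% of the others.

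Methylation of the clusters was low almost throughout. Over the 470 complete sites the mean was 5.93% and the median 3.86%, and 455 sites (96.8%) lay under 20%. Another 13 lay between 20% and 80% and 2 above 80%. All other complete CpG sites of the table averaged 47.3%, with 42.3% of them under 20%. Sites near gene ends were taken as a second set for comparison, and CpG islands were not annotated. The 25743 complete sites within 1 kb of an end of another protein-coding gene averaged 10.4%, with 87.2% under 20%. Sites at homeobox genes outside the clusters, a set of 364, averaged 8.20%, with 91.5% under 20%.

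The low level of the Hox clusters was low rather than nil. Only 282 of the 470 Hox sites lay under 5% (a share of 60%), against 70.8% of the sites near other gene ends, and the Hox median of 3.86% stood above their median of 1.505%. The Hox set spans whole intervals, while the other holds only sites within 1 kb of a gene end, so they differ in make-up. Over all 1739 Hox positions, complete or not, 66.9% lay under 5% and the median was 3.16%, with no such figure for gene ends. The homeobox genes outside the clusters had 54.7% of sites under 5% and a median of 4.41%. Among sites with a mean under 20% the mean was 4.67% in the Hox clusters and 4.65% elsewhere. Values of exactly 0 made up 57.1% of the Hox values at such sites and 66.0% of the values elsewhere. All 15 mice were at 0 at 19 Hox sites. These comparisons are descriptions of levels, and no test was made of them.

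**Figure D1:**
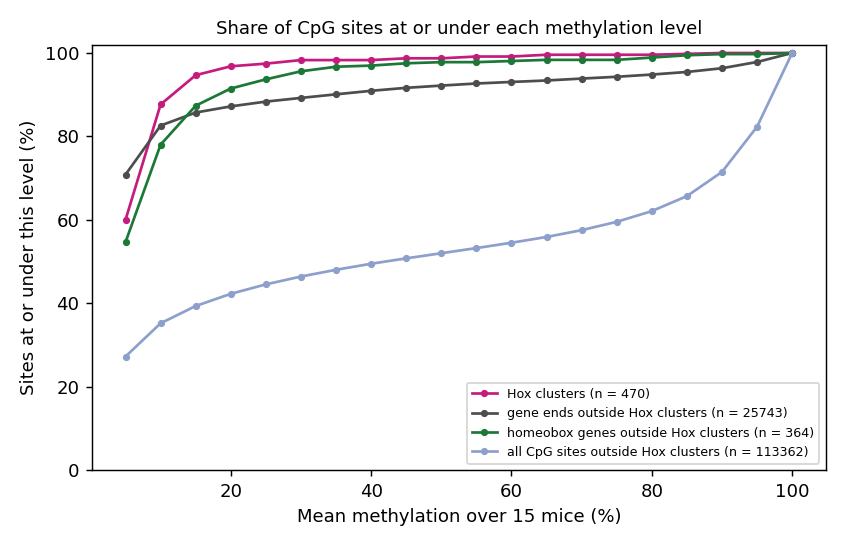
The x axis gives the mean methylation over 15 mice in percent, and the y axis the percentage of complete CpG sites at or under that level, for 4 sets of sites. The Hox curve starts at 60% of sites under 5%, under the 70.8% of sites near other gene ends, and then passes above it to reach 96.8% at 20%.

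Methylated DNA occurred in a few short stretches, many of them in gaps, inside genes or past gene ends and some just before genes. At all positions with a value, whether complete or not, 43 of 1739 had a mean of at least 20%: 14 in Hoxa, 16 in Hoxb, 6 in Hoxc and 7 in Hoxd. Some of these lay within 1 kb before the annotated span of a gene. They were at 31.9% and 20.2% before Hoxb8 (168 and 159 bases) and 26.3% and 24.4% before Hoxc10 (556 and 555 bases). Before Hoxa7 the level was 26.6% (539 bases), and before Hoxa6 22.8% and 34.2% (867 and 962 bases). Complete sites inside a Hox gene averaged 5.26% (298 sites), and the 33 sites more than 5 kb from any Hox gene averaged 14.5%, with 5 of the 33 at 20% or above.

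**Figure D2:**
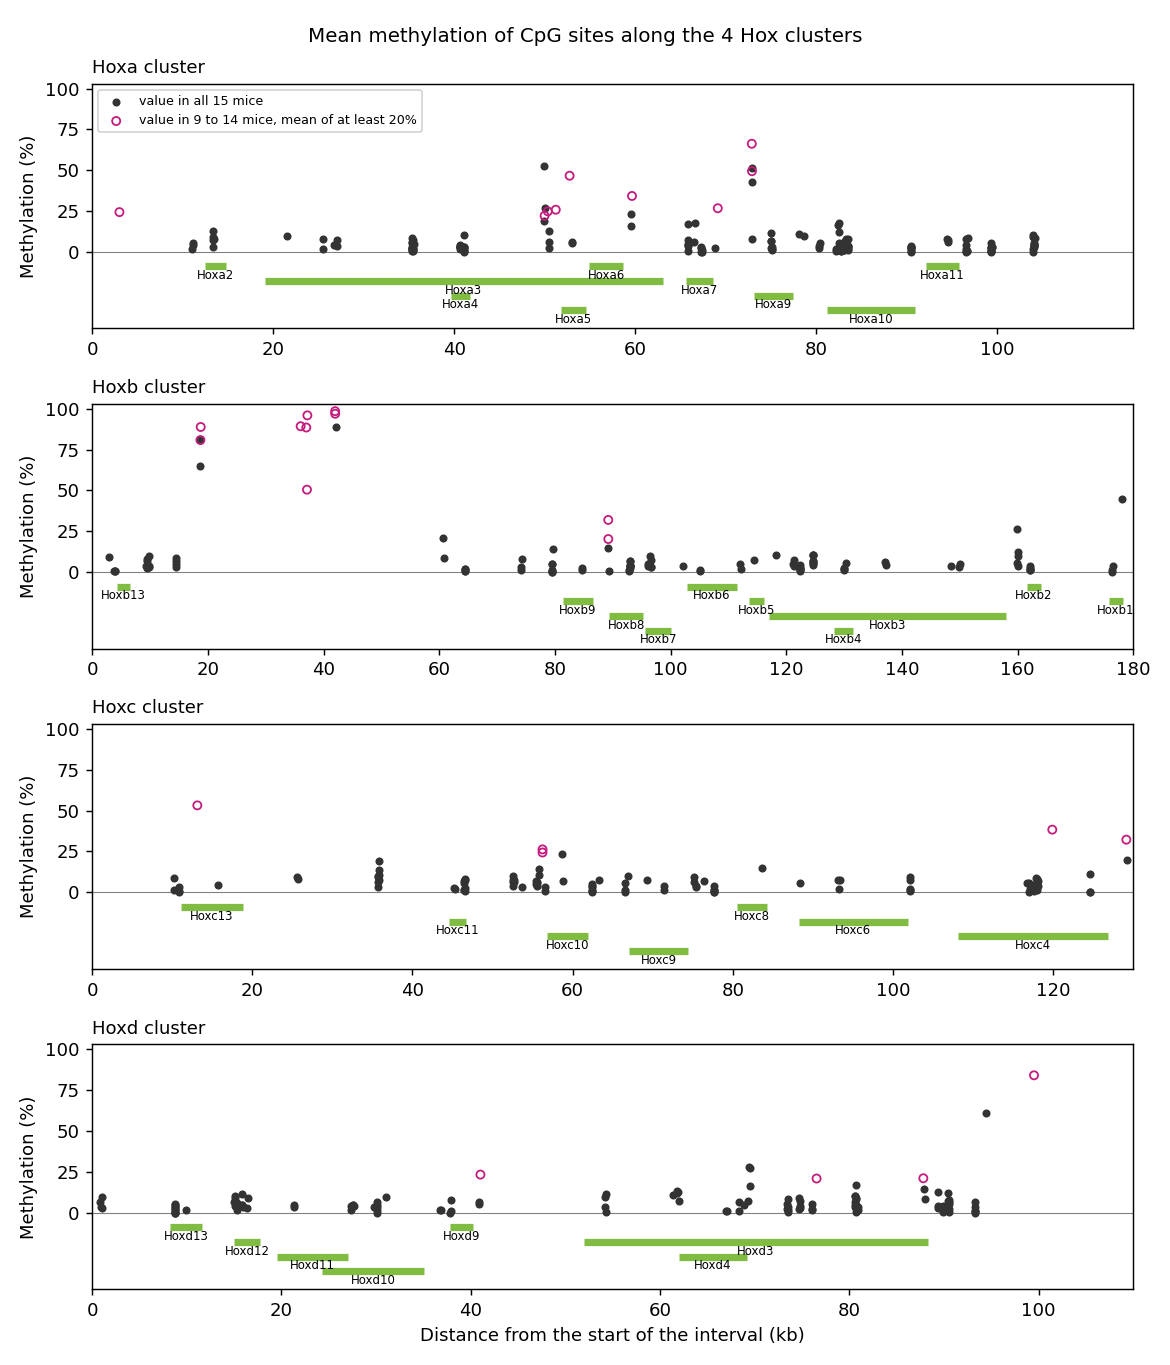
Each panel is 1 cluster, with the distance from the start of its interval in kb on the x axis and methylation in percent on the y axis. Filled points are complete sites, open circles are positions with a value in 9 to 14 mice and a mean of at least 20%, and bars are the spans of the Hox genes with at least 1 complete site. Most points lie close to 0, and the wide gap between Hoxb13 and Hoxb9 holds 11 positions at 50.5% to 98.5%.

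The longest methylated stretch was in the gap between Hoxb13, the most posterior gene of its cluster, and Hoxb9. Between 11968 and 35589 bases past the end of Hoxb13 there were 11 positions with means of 50.5% to 98.5%. Of the 3 complete ones, chr11 position 96208578 averaged 80.6%, position 96208624 averaged 64.9% and position 96232199 averaged 88.6%. Closer to Hoxb9 the level was low again, with 20.6% at a single site 20645 bases before that gene.

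In the Hoxa cluster a short stretch lay just outside the end of Hoxa9, a gene that acts in the trunk and in blood cell precursors. Positions 174 to 229 bases from that end averaged 51.6%, 42.9%, 49.4% and 66.2% in order of distance. A second one lay between Hoxa4 and Hoxa5, inside the wide annotated span of Hoxa3, with 52.4% at position 52199962 and 27.0% at position 52199977. In the Hoxd cluster the RefSeq span of Haglr, a long non-coding RNA gene between Hoxd3 and Hoxd1, held a site at 61.1% and another at 84.1% (14 mice). Within 300 bases past the end of Hoxd4, 2 sites averaged 28.1% and 27.4%. Inside Hoxb1 a single site near the gene's far end was at 44.8%, and inside Hoxc13, which acts in hair and nail, 1 position was at 53.3% in 14 mice. The Hoxc cluster had the fewest such positions, and only 1 of its 99 complete sites reached 20%, at 23.5% inside Hoxc10.

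Genes were compared over their annotated span with 1 kb either side. Of the 39 Hox genes, 28 had at least 3 complete sites. A further 6 had none, among them Hoxc12 and Hoxd8, and Hoxa5, Hoxa6, Hoxb5, Hoxb9 and Hoxc8 had 1 or 2. On so few sites Hoxa6 averaged 19.3% (2 sites, both within 1 kb of its start) and Hoxc8 14.6% (1 site), above each of the 28. Hoxa5, Hoxb5 and Hoxb9 averaged 5.38%, 7.37% and 1.84%. The 28 genes ranged from 0.642% to 13.2%, with a median of 4.26%, and the median of 7949 other protein-coding genes was 22.3%. Of the other genes, 41.2% lay under the level of Hoxa9, the highest of the 28.

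The anterior genes, paralogue groups 1 to 3, pattern the hindbrain and had a median of 6.74% over 6 of 8 genes. Hoxb1 was the highest of them at 12.5%, which the 44.8% site among its 4 sites raised, and Hoxb2, a gene of several hindbrain segments, was the lowest at 2.13%. Hoxa2, the Hox gene with the most anterior limit of expression, stood at 7.77% (5 sites). The units of Hoxa3, Hoxb3 and Hoxd3 stood at 6.39%, 4.91% and 7.09%, and their wide spans contain other Hox genes, so they share sites with these. The anterior median is the midpoint of the Hoxa3 and Hoxd3 units, so it rests in part on sites of central genes.

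The central genes, groups 4 to 8, act in the neck and chest region and had a median of 4.36% over 9 of 15 genes. Hoxd4 was the highest of these 9 at 10.6% (14 sites), and its paralogues Hoxa4, Hoxb4 and Hoxc4 stood at 2.82%, 2.95% and 4.15%. Hoxb6 was the lowest at 2.42%, and Hoxb7, Hoxa7, Hoxc6 and Hoxb8 stood at 5.22%, 4.95%, 4.80% and 4.36%. In the Hoxd4 unit the range over mice was 5.06% to 15.3%, which overlaps the 1.77% to 6.49% of Hoxc4 and the 0.196% to 9.47% of Hoxa4.

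The posterior genes, groups 9 to 13, act in the lower trunk, limbs and genital region and had a median of 3.93% over 13 of 16 genes. Hoxa9 stood highest of the 28 Hox genes at 13.2% (11 sites, mouse range 7.03% to 19.4%), with the methylated stretch past its end inside its unit. Its paralogues Hoxc9 and Hoxd9 stood at 4.93% and 3.36%. Hoxb13 was the lowest of the 28 at 0.642% (3 sites, 0 to 2.56%), next to Hoxd13 at 2.06% and Hoxc13 at 3.25%. The remaining posterior genes, Hoxa10, Hoxa11, Hoxc10, Hoxc11, Hoxd10, Hoxd11 and Hoxd12, stood between 3.59% and 5.82%. The mouse ranges of neighbours in this order overlapped. The lowest mouse of Hoxa9 was above the highest mouse of Hoxa10, Hoxd9, Hoxd11, Hoxb13 and Hoxd13.

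**Figure D3:**
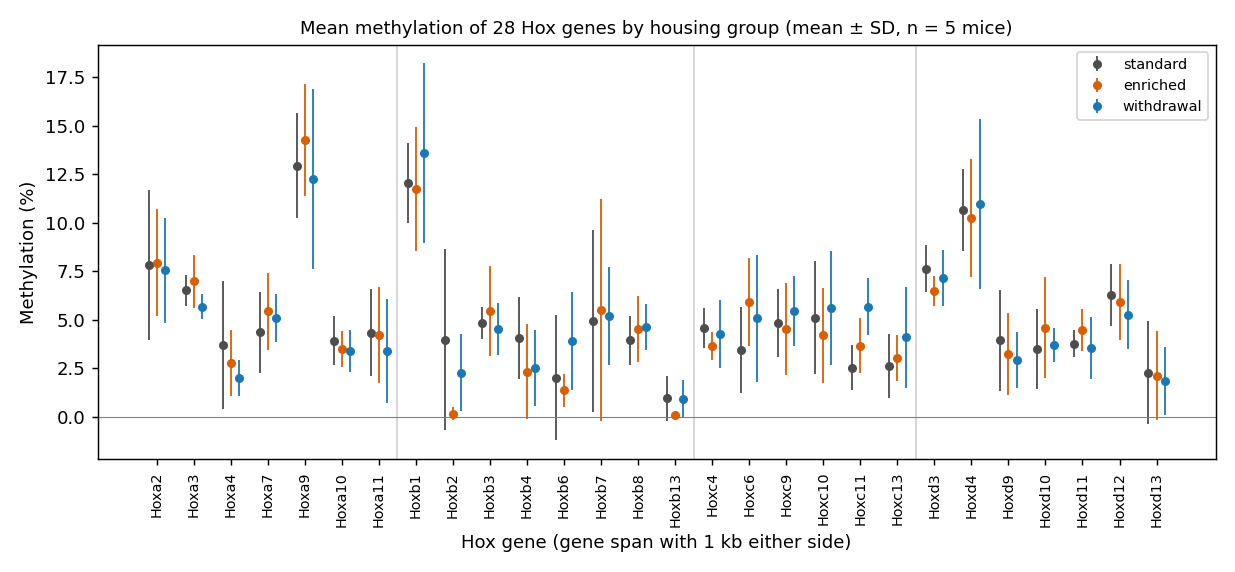
The x axis lists the 28 Hox genes with at least 3 complete sites by cluster and number, and the y axis gives methylation in percent. Points are the means of 5 mice in the 3 housing groups and bars are 1 SD either side. Hoxa9, Hoxb1 and Hoxd4 stand highest in each group, and the error bars of the groups overlap for most genes, with the withdrawal mean of Hoxc11 (5.67%) above its standard mean (2.53%).

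The clusters also hold microRNA genes and long non-coding RNA genes. Around the miR-196 genes, which target Hox messages, positions within 1 kb averaged 5.14% at Mir196b (9 positions), 5.0% at Mir196a-1 (5 positions) and 2.91% at Mir196a-2 (17 positions). Mir10b, inside the Hoxd4 span, averaged 3.28% over 7 positions, and Mir615 in the Hoxc cluster 7.73% over 11 positions. Mir10a had none. Among the non-coding genes, Hotair, which lies between Hoxc12 and Hoxc11, stood at 9.93% over 8 complete sites (mouse range 5.90% to 14.3%). Hoxa11os, a non-coding gene antisense to Hoxa11, stood at 2.38% over 18 sites, and Haglr at 7.01% over 20.

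The housing groups were first compared by the mean over each cluster. The Hoxa cluster averaged 5.50% ± 0.411 (SD, n = 5) in the standard group, 5.74% ± 0.672 in the enriched group and 5.14% ± 0.509 in the withdrawal group. The Hoxb cluster averaged 7.41% ± 1.06, 7.16% ± 1.40 and 7.31% ± 0.795 in the same order. In these 2 clusters each difference between groups was smaller than the larger of the SDs compared. The Hoxc cluster averaged 5.49% ± 0.988, 5.10% ± 1.14 and 5.71% ± 1.02. The Hoxd cluster averaged 6.06% ± 0.475, 5.66% ± 0.989 and 5.60% ± 1.11. Here too the differences were smaller than the larger SD, and in all 4 clusters the mice of the 3 groups overlapped in each pair of groups. Over the 470 sites together the means were 6.05% ± 0.263, 5.89% ± 0.769 and 5.85% ± 0.355, with 47.1%, 47.2% and 47.6% at the sites outside the clusters.

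**Figure D4:**
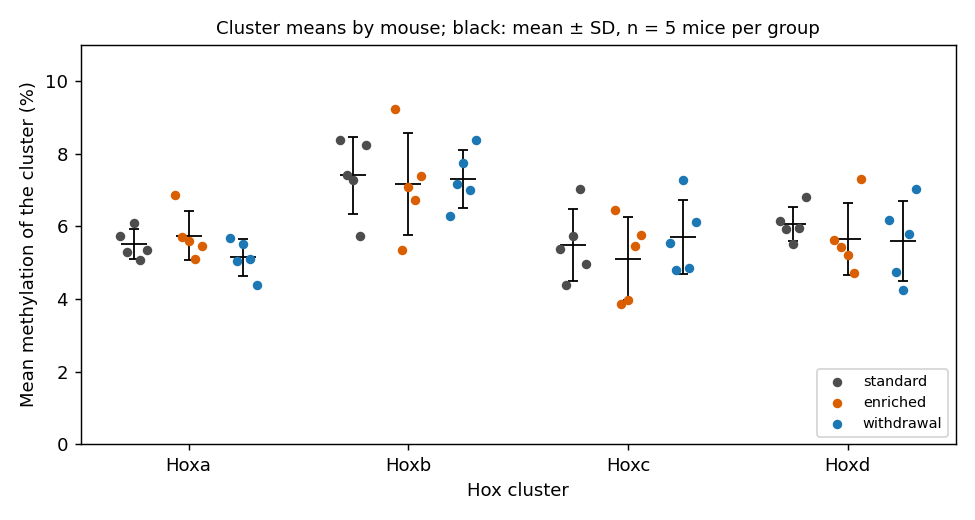
The x axis gives the 4 clusters and the y axis the mean methylation of the complete sites of a cluster in percent. Each point is 1 mouse, coloured by housing group, and black marks are the mean ± SD of 5 mice. The points of the 3 groups overlap in each cluster, and the Hoxb points, at 5.35% to 9.24%, lie above most others.

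Among the clusters Hoxb stood apart, while Hoxa, Hoxc and Hoxd differed from one another by a mean of 0.335 points or less. Hoxb was higher than Hoxa in 14 of 15 mice, by a mean of 1.83 points (SD 1.05), higher than Hoxc in 14 and higher than Hoxd in 13. That order rested on a few sites: over the sites with a mean under 20%, Hoxb averaged 4.32%, Hoxa 4.29%, Hoxc 5.25% and Hoxd 4.92%. With standard mouse 1 left out and the 680 sites complete in the other 14 mice, the means were 5.44% for Hoxa, 6.21% for Hoxb, 5.89% for Hoxc and 5.30% for Hoxd, and within each cluster the group means differed by less than the larger SD.

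Single sites were then tested with limma on the log2 ratio of methylated to unmethylated percentage, with 5 points added to each, over all 100562 complete sites of the table that ranged over at least 5 points. Of the Hox sites, 430 were tested: 135 in Hoxa, 94 in Hoxb, 90 in Hoxc and 111 in Hoxd. No Hox site passed an adjusted p of 0.05 (Benjamini-Hochberg) in any of the 3 comparisons, and neither did any other site (0% of those tested). At an unadjusted p under 0.05 there were 12 Hox sites higher and 10 lower in the enriched than in the standard group, in all 5.12% of those tested. Of all sites 5.15% did so, 2.7% higher and 2.45% lower. Between withdrawal and standard 11 were higher and 7 lower, 4.19% against 4.42% of all sites (2.47% higher and 1.95% lower). Between withdrawal and enriched 12 were higher and 7 lower, 4.42% against 4.3% (2.32% and 1.98%). In each comparison the Hox share was close to that of the table as a whole. Groups without overlap were found at 1 site higher and 1 lower for enriched against standard, against 0.235% and 0.224% of all sites tested. They were found at 3 higher and 2 lower for withdrawal against standard (0.317% and 0.215% of all sites). For withdrawal against enriched they were found at 2 higher and none lower (0.285% and 0.225% of all sites).

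The site with the smallest p was on the minus strand of chromosome 2 at position 74750562, inside Haglr and 2291 bases past Hoxd3. The 5 standard mice read 47.6%, 15.8%, 28.6%, 15.4% and 7.14%, and each of the 10 enriched and withdrawal mice read 0. The standard group thus lay wholly above both others, with a mean of 22.9% ± 15.8. The log2 ratio differed from that of the standard group by -2.68 (SE 0.439) in each of the other groups, and both comparisons use those standard mice. The adjusted limma p was 0.232 in the enriched and 0.172 in the withdrawal comparison. It ran from 0.0162 to 0.886 and from 0.0189 to 0.955 over the alternative settings, and fell under 0.05 without standard mouse 5 (0.0162 and 0.0189) and with 1 point in place of 5 added to the percentages (0.0310 and 0.0465). The other 6 positions within 150 bases did not share this pattern: their means were 0 to 2.76% in the standard group, 0.714% to 14.99% in the enriched group and 0.667% to 8.75% in the withdrawal group.

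Other sites with the smallest p had larger adjusted values. Inside Hoxc13, position 102925721 of chromosome 15 (minus strand) read 26.3%, 2.17%, 2.86%, 10.9% and 20% in the standard mice. It read 5.41% in 1 enriched mouse and 0 in the other 9 mice of the enriched and withdrawal groups. The withdrawal mice lay wholly under the standard mice, while 1 enriched mouse overlapped them. The adjusted limma p was 0.768 for enriched and 0.795 for withdrawal against standard, and no other position lay within 150 bases. Inside Hoxc11, a gene of the hindlimb and lower trunk, position 102956520 (minus strand) read 0, 0, 1.89%, 5.71% and 0 in the standard mice. The withdrawal mice read 14.3%, 21.4%, 6.38%, 17.6% and 22.6%, all above the standard mice (limma adjusted p = 0.731). The enriched mice read 6.12%, 0, 6.38%, 12.3% and 0, with a mean between those of the other groups. The plus strand of the same CpG, with 13 mice, averaged 1.82%, 4.88% and 9.78% in the standard, enriched and withdrawal groups. The 13 other positions within 150 bases, that strand included, went in both directions, and 1 of them 11 bases away averaged 7.74%, 2.47% and 4.35%.

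Within the span of Hoxd3 there were 2 such sites on the minus strand. At position 74740665 the standard mice read 0, 10.3%, 26.9%, 13.9% and 30%, and the enriched mice read 6.06% in 1 mouse and 0 in 4 (limma adjusted p = 0.806). The 2 groups overlapped through standard mouse 1. The plus strand of the same CpG went the other way, with means of 16.2%, 23.2% and 10.6% in standard, enriched and withdrawal mice. At position 74747936 the enriched mice read 5.88% in 1 mouse and 0 in 4, and the withdrawal mice 43.2%, 8.62%, 53.8%, 14.5% and 21.1%. Every withdrawal mouse was above every enriched mouse there (limma adjusted p = 0.881), and the standard mice, at 27.3%, 23.5%, 1.79%, 19.7% and 0, spanned most of the range.

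At the start base of Hoxd4, in the promoter printed above (position 74721978, plus strand), the enriched mice read 15.2%, 0, 33.3%, 21.6% and 20.8%. All 5 withdrawal mice read 0, and the standard mice read 19.4% in 1 mouse and 0 in 4. The enriched and withdrawal groups overlapped through 1 enriched mouse (limma adjusted p = 0.881). Last, 7117 bases before Hoxb9, position 96264213 of chromosome 11 (minus strand) read 0 in all standard and enriched mice and 1.01%, 4.35%, 5.41%, 3.85% and 8.33% in the withdrawal mice. The plus strand of the same CpG was at 0 in all 13 mice with a value. On the minus strand the withdrawal values were all above the other 10 mice (limma adjusted p = 0.976 against enriched).

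**Figure D5:**
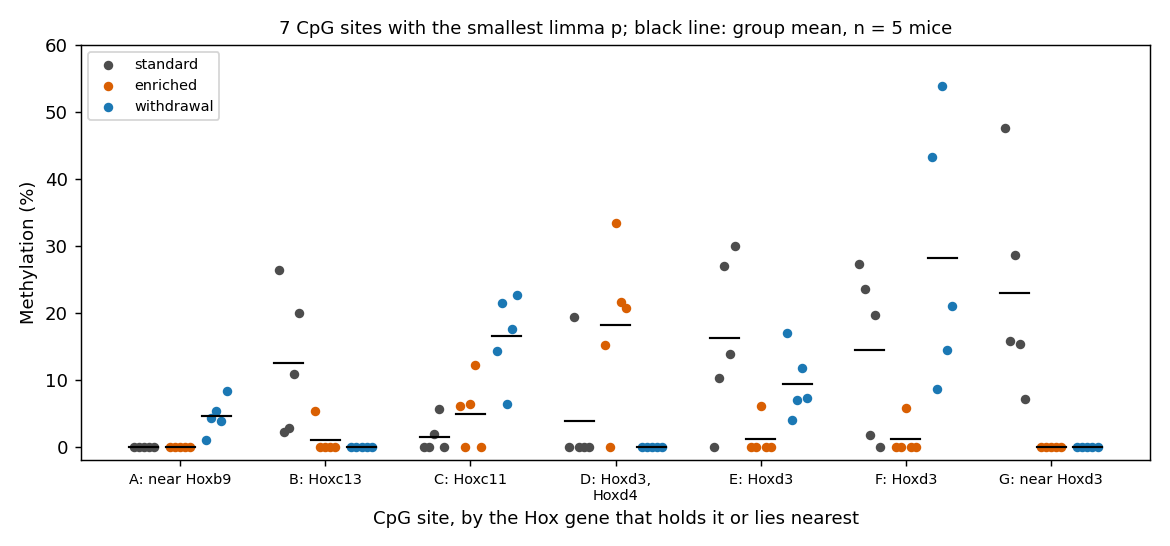
The x axis gives the 7 CpG sites with the smallest limma p, named by the Hox gene that holds them or lies nearest, and the y axis methylation in percent. Points are mice coloured by housing group and black lines are group means. At the rightmost site, inside Haglr, the standard mice read 7.14% to 47.6% and the other 10 mice 0.

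Neighbouring sites were next averaged over 1 kb windows with at least 3 complete sites, of which the clusters had 66 of 15677. No window in the clusters passed an adjusted p of 0.05 in any comparison with limma, nor did any other window (0% called). At an unadjusted p under 0.05 there were 2 higher and 2 lower for enriched against standard, 6.06% against 5.71% of all windows (3.05% higher and 2.66% lower). For withdrawal against standard there were 4 higher and 1 lower, 7.58% against 4.8% (2.9% and 1.9%). For withdrawal against enriched there was 1, lower, 1.52% against 4.39% (2.67% and 1.72%). With 66 windows these shares rest on 1 to 5 windows each.

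A single window had groups without overlap, at chr15:102920001-102921000, whose centre lies 631 bases before Hoxc13. Its 5 sites averaged 0, 1.26%, 0, 1.11% and 0.849% in the standard mice. The enriched mice read 4.85%, 2.45%, 3.53%, 2.48% and 3.85%, and the withdrawal mice 4.60%, 2.48%, 10.1%, 4.75% and 2.55%. Each of these 10 mice was above every standard mouse. The group means were 0.644% ± 0.606, 3.43% ± 1.01 and 4.90% ± 3.12, and the adjusted limma p was 0.788 for enriched and 0.995 for withdrawal against standard. Among all windows tested, 0.376% had every enriched mouse and 0.51% every withdrawal mouse above every standard mouse. The shares with every mouse under the standard mice were 0.313% and 0.293%, and for withdrawal against enriched 0.408% lay wholly above and 0.242% wholly under, with no Hox window among these.

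The other windows with the smallest p overlapped between groups. At chr11:96204001-96205000, its centre 7890 bases past Hoxb13, the means were 1.53% ± 1.68, 9.06% ± 6.01 and 6.95% ± 2.75 in the standard, enriched and withdrawal groups (limma adjusted p = 0.788, enriched against standard). At chr11:96269001-96270000, just before Hoxb9, they were 5.83% ± 2.51, 3.57% ± 1.34 and 1.82% ± 2.05 (limma adjusted p = 0.995, withdrawal against standard). For withdrawal against enriched the window at the start of Hoxd4, chr2:74721001-74722000, held the same 5 complete sites that were averaged within 1 kb of that start. Its means were 10.1% ± 5.61, 15.7% ± 5.40 and 7.72% ± 3.67 (limma adjusted p = 0.999). The window chr2:74736001-74737000 inside Hoxd3 had means of 2.21% ± 3.27, 5.25% ± 3.85 and 1.47% ± 1.31 (limma adjusted p = 0.999).

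By gene, none of the 28 Hox genes passed an adjusted p of 0.05 in any comparison with limma. Of all 7977 genes tested, 1 (0.0125%) passed in the comparison of enriched with standard mice and none (0%) in the others. At an unadjusted p under 0.05 there was 1 Hox gene, lower, for enriched against standard (3.57% against 6.02% of all genes, 3.4% higher and 2.62% lower). There was 1, higher, for withdrawal against standard (3.57% against 5.28%, 3.75% higher and 1.53% lower), and none for withdrawal against enriched (0% against 4.71%, 3.15% higher and 1.57% lower). No Hox gene had groups without overlap. Of all genes, 0.301% lay wholly higher and 0.439% wholly lower between enriched and standard mice, 0.677% and 0.188% between withdrawal and standard mice, and 0.476% and 0.301% for withdrawal against enriched. The lower gene was Hoxb2, at 9.09%, 0.952%, 0.714%, 0 and 9.10% in the standard mice. The enriched mice read 0.769% in 1 mouse and 0 in 4, and the withdrawal mice 0.952%, 0, 4.55%, 1.74% and 4.12% (limma adjusted p = 0.8286, enriched against standard). The standard mice ranged from 0 to 9.10% and overlapped both other groups.

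The higher gene was Hoxc11, with 10 sites. The standard mice read 1.39%, 1.93%, 3.89%, 3.62% and 1.81%, the enriched mice 3.33%, 5.32%, 4.67%, 3.33% and 1.64%, and the withdrawal mice 4.67%, 7.48%, 6.71%, 3.85% and 5.64%. The withdrawal mean of 5.67% ± 1.47 stood above the standard mean of 2.53% ± 1.14 (log2 ratio higher by 0.55, SE 0.163, limma adjusted p = 0.889), with the lowest withdrawal mouse just under the highest standard mouse. Hoxc11 also had the smallest p for withdrawal against enriched (limma adjusted p = 0.992). Its unit contains position 102956520 described above.

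The widest differences between mice of one group were at methylated stretches, though not at all of them. The largest standard deviation within groups, 13.1 points, was in the window just outside the end of Hoxa9 (chr6:52222001-52223000). Its 3 sites averaged 19.1%, 42.7%, 47.9%, 48.5% and 27.4% in the standard mice, 26.4%, 39.5%, 52.5%, 49.9% and 21.5% in the enriched mice, and 41.1%, 29.2%, 29.8%, 28.3% and 7.43% in the withdrawal mice. The range ran from 7.43% to 52.5% and the groups overlapped. The second largest, 11.5 points, was just past Hoxd4 (chr2:74729001-74730000), where the standard mice read 17.2% to 27.2%, the enriched mice 2.42% to 34.6% and the withdrawal mice 9.87% to 42.9%. The methylated window between Hoxa4 and Hoxa5 (chr6:52199001-52200000), with a mean of 32.7%, was steadier, at 4.31 points. In Hox windows with a mean under 20%, the median standard deviation within groups was 2.98 points, against 2.71 points in the 7138 such windows elsewhere. The median level of these windows was 3.98% in the Hox clusters and 2.45% elsewhere, so the 2 sets were not matched for level.

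A wide spread was also seen at several single methylated sites, of which 15 were complete. At position 96208578 in the gap past Hoxb13 the standard mice read 80.5%, 100%, 83.3%, 100% and 83.3%, the enriched mice 100%, 56.2%, 67.3%, 82.8% and 0, and the withdrawal mice 71.4%, 84.6%, 100%, 100% and 100%. The groups overlapped, and the enriched mean of 61.3% ± 38.0 includes mouse 5 at 0. Position 96208624, 46 bases on, had means of 76.8% ± 33.0, 43.1% ± 26.4 and 74.8% ± 18.2 in the standard, enriched and withdrawal mice, with enriched mouse 2 at 0. At position 96232199, deeper in the gap, all mice read 71.9% or more. The site inside Haglr at position 74754445 read 27.2% to 90.9% in standard, 35.3% to 95.4% in enriched and 54.3% to 80.6% in withdrawal mice, and the groups overlapped. The Hoxb1 site at position 96368145 was steadier, with means of 46.7% ± 10.98, 39.6% ± 9.08 and 48.1% ± 14.03. Between Hoxb3 and Hoxb2, inside the non-coding gene Hoxb3os, position 96349954 read 92.3% in standard mouse 5 and 0 to 22% in the other standard mice. There the enriched mice read 5.77% to 59.4% and the withdrawal mice 0 to 37.0%. None of the 15 sites had an adjusted limma p under 0.914 in any of the 3 comparisons.

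Genes that act with the Hox proteins or on their clusters were read from lists, with the same gene units and the same limma test, and none of their members passed an adjusted p of 0.05. Of the Hox cofactors of the Pbx, Meis and Pknox families 8 of 9 were tested and none had an unadjusted p under 0.05. Of the Polycomb repressive complex 2 genes, whose product methylates histone H3, 7 of 11 were tested: Jarid2 stood at 31.9% ± 2.37 in withdrawal and 27.96% ± 2.24 in standard mice (limma adjusted p = 0.937), and Phf1 at 0 in all 5 withdrawal mice and 4.78% ± 5.14 in enriched mice (limma adjusted p = 0.921). Neither passed the adjusted threshold. Of the Polycomb repressive complex 1 genes 12 of 16 were tested.

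Of the Trithorax genes and histone demethylases, which counter Polycomb, 6 of 10 were tested. Ash1l, a histone methyltransferase of the Trithorax group, had 5.005% ± 1.10 in standard mice, 8.87% ± 1.13 in enriched mice and 9.12% ± 2.15 in withdrawal mice. Its adjusted limma p was 0.661 for enriched and 0.869 for withdrawal against standard. Of the genes that flank the clusters 5 of 13 were tested, and Ttll6 beside Hoxb13 had the smallest p (58.1% ± 2.37 in standard and 63.7% ± 3.53 in enriched mice, limma adjusted p = 0.743). Of 38 homeobox genes outside the clusters 29 were tested, with a median level of 5.61%. Between enriched and standard 1 had a higher and 2 a lower level at an unadjusted p under 0.05, between withdrawal and standard 2 and 1, and between withdrawal and enriched 3 and 0. Over all genes tested 6.02%, 5.28% and 4.71% passed in the same comparisons. Barhl2, a neuronal homeobox gene, was at 6.38% ± 1.39 in standard and 2.74% ± 0.956 in enriched mice (limma adjusted p = 0.661). Irx5 was at 2.30% ± 2.03 in enriched mice and 8.06% ± 3.69 in withdrawal mice (limma adjusted p = 0.779).

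Markers of other cell types of the dissected region were read in the same way. Of 4 oligodendrocyte genes 3 were tested. Olig2, with the smallest p of the 3, stood at 3.73% ± 4.72, 1.64% ± 2.79 and 10.8% ± 9.23 in the standard, enriched and withdrawal groups (limma adjusted p = 0.962, withdrawal against enriched), Mbp at 7.11% ± 4.43, 10.2% ± 4.52 and 8.42% ± 3.87, and Mog at 92.3% ± 7.91, 90.9% ± 19.2 and 97.4% ± 5.72. Of 4 astrocyte genes 3 were tested and none had an unadjusted p under 0.05. Neither did the 2 granule cell genes, and no microglia gene was tested. The part of the cell mix in the Hox values was not tested.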

How the data were processed

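RRBS of dentate gyrus was done in 15 mice, 5 in each of 3 housing groups taken from the housing labels. Per the labels' protocols, libraries came from a commercial RRBS kit. The submitters' processing notes name mm10, Trim Galore 0.4.0, cutadapt 1.8.1, Bismark 0.16.1 and methylKit 1.5.2, without their roles. The authors deposited percent methylation for each cytosine on each strand, without coverage, so depth is unknown and no coverage minimum could be set. The table runs through the chromosomes more than once, and the rows before the first restart were taken as CpG positions: all 47099 of them within RefSeq promoter sequences (GRCm38.p6) lie at a CG, against 0% after a shift of 1 base.

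Features tested here were sites with a value in all 15 mice, 1 kb windows and gene spans with 1 kb either side. Windows and gene spans needed at least 3 such sites. All were tested with limma 3.58.1 in R 4.3.3 (eBayes with a variance trend, two-sided, 3 group means in 1 fit) on log2((percent + 5)/(100 - percent + 5)). Benjamini-Hochberg adjustment ran over the whole table. Beforehand the test was tried on shuffled values of these data with known shifts added to the enriched mice. The outcome of that trial is not given here. Sites ranging over less than 5 points were left out. Cluster means were not tested. Gene positions came from RefSeq; exons were not used.

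The clusters and lists were chosen with earlier results of these data known. The features named are the 3 sites, 2 windows and 1 gene with the smallest p in each comparison, the 2 windows with the largest standard deviation, the promoters with the highest and lowest level in each cluster, and the smallest p of the Hox-related lists. Stretches of at least 20% methylation, Hoxd12, the non-coding genes and Olig2 were added after their values were seen. The values of 2 listed genes are not reported here. Alternatives covered the added points, the scale, the filters, window size, margin, the variance trend, a replicate block and leaving out each mouse.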

Additional observations from a re-analysis of the deposited data

Results flagged for a closer look

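In 5 of 63 groups of 5 mice examined at the sites, windows and genes named above, 1 mouse stood apart from the other 4 by Dixon's test, whose 95% critical value is 0.71 for 5 values. In each the other 4 mice were all at 0, so the gap made up the whole range (a ratio of 1), however small the remaining value. Most of these features were also named for their small p. The count therefore cannot be set against a chance rate. They were the enriched group at position 102925721 in Hoxc13 (1 mouse at 5.41%), the standard group at the start base of Hoxd4, position 74721978 (19.4%), the enriched group at position 74740665 in Hoxd3 (6.06%), the enriched group at position 74747936 in Hoxd3 (5.88%) and the enriched group in the Hoxb2 gene unit (0.769%).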

How the results depend on the processing

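With limma, no Hox site, window or gene was called in any of the 3 comparisons under the percent scale, no variance trend, the other filters, 2 kb windows or genes without the margin. The exception was the Haglr site at position 74750562: for enriched and for withdrawal it was the 1 Hox site called in each of the comparisons with the standard group, with 1 point added (adjusted p 0.0310 and 0.0465) and without standard mouse 5 (0.0162 and 0.0189). Leaving out each mouse in turn gave 0 to 1 called sites in these comparisons and 0 in all others. The cause was not tested. Differences between group means of the 4 clusters ran from -0.823 to 0.951 points when each mouse was left out, and several changed sign: Hoxb enriched minus standard was -0.249, with a range of -0.768 to 0.203. Hox sites at an unadjusted p under 0.05 numbered 18 to 57, 15 to 46 and 14 to 56 over the settings for the 2 comparisons with the standard group and the one of withdrawal with enriched mice. They numbered 30, 22 and 28 without standard mouse 1 at the sites complete in the other 14 mice, an alternative chosen after seeing the data, where no site was called. The number of sites tested differed between settings with other filters. The share over all sites is not given for these settings, so the counts cannot be compared with one another or read as a result.

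The replicate numbers of the titles did not pair the mice: the correlation of the deviations of same-numbered mice averaged 0.00257 (-0.0347 to 0.0665 over 15 pairs), and 6 of 30 comparisons of a mouse with another group were best for its own number. With a replicate block 0 Hox features were called, and 24, 21 and 21 of the 430 Hox sites had an unadjusted p under 0.05. The share over all sites is not given for that setting. Without coverage, a value of 0 or 50% from few reads cannot be told from one of many, and no statement of absence can be made for sites.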

Other observations

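A few cytosines outside CpG read as methylated in the Hoxb gap, with wide differences between mice. Over the 2152 non-CpG cytosines of the clusters with a value in all 15 mice, methylation averaged 0.552% (0.444% to 0.689% by mouse), and 7 had a mean of at least 5%. Of these 7, 4 lay between Hoxb13 and Hoxb9, beside the CpG sites of high methylation: position 96208635 averaged 18.8%, position 96232129 averaged 24.4%, position 96232155 averaged 5.10% and position 96232177 averaged 5.13%. The spread between mice was wide, from 0 to 66.7% at the first and from 0 to 100% at the second, and the housing groups overlapped at all 7. At position 96232155 all standard mice read 0 and the highest enriched mouse 53.8%. At position 96232177 the standard mean was 8.89%, with a highest standard mouse of 44.4%. The other 3 lay near Hoxc9 (7.29%, with 1 standard mouse at 90.9%), in Hoxd13 (5.20%, with 1 enriched mouse at 70.6%) and past Hoxd4 (5.19%). The depth behind these single values is unknown.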
